A study of Homo sapiens with 20 samples.

Results

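The 39 protein-coding HOX cluster genes were described in 5 gastric cancer cell lines treated with decitabine (DCB) or with its solvent control DMSO. Their rows were picked by name and biotype, as protein-coding with a symbol of HOX, a cluster letter from A to D and a paralogue number. The family was chosen with earlier results of these data known. Its genes make up 39 of the 60232 genes in the expression table. HOXA, on chromosome 7, holds 11 of them, HOXB, on chromosome 17, holds 10, HOXC, on chromosome 12, holds 9, and HOXD, on chromosome 2, holds 9. Poly(A) RNA was sequenced after 72 h of DCB or DMSO, with 2 libraries per line and treatment and 20 libraries in all. DCB, an analogue of cytidine, enters DNA in place of it and captures DNA methyltransferases, so that cytosine methylation is lost as cells divide. YCCEL1 and SNU719 carry Epstein-Barr virus (EBV+), and AGS, HGC27 and SNU16 do not (EBV−). The study classes YCCEL1, SNU719 and AGS as positive for the CpG island methylator phenotype (CIMP+), a state of dense methylation at many CpG-rich promoters, and HGC27 and SNU16 as CIMP−. All lines are labelled wild type. Nothing in the labels tells whether both libraries of a group came from separate cultures, so p-values measure only the spread between these libraries, which may be technical. EBV and CIMP status are properties of whole lines, and a difference by status rests on 5 lines however many libraries they gave.

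HOX genes encode homeodomain transcription factors that give cells their position along the body axis. Within each cluster the genes lie in the order of their paralogue numbers. Low-numbered (anterior) genes are used nearer the head and earlier, and high-numbered (posterior) genes nearer the tail, a pattern called collinearity. In differentiated cells the genes that are not in use are held silent by Polycomb proteins, and in many cancers CpG islands of the clusters gain DNA methylation.

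Values are the authors' normalized estimated counts, and changes are differences in log2(value + 1), DCB minus DMSO, tested with limma. A gene was called higher or lower at a Benjamini-Hochberg adjusted p below 0.05, over all 27350 genes tested, together with an absolute log2 fold change above 2. Of the 39 HOX genes, 38 passed the filter on low values, a sum above 10 over the 20 libraries, and HOXB1 did not. Low values rest on few reads, since the most frequent value above 0 in a library, taken as 1 read, was 0.754 to 1.21. All 15 reference genes that every cell uses were above 0 in every library. No fold is given where a group was listed at 0. HGC27 stood apart as a gastric epithelial line. Its 6 epithelial markers (among them EPCAM and CDH1) summed to 492 to 615 in DCB and 119 to 188 in DMSO, against 34639 to 107295 in the libraries of the other lines, and its 5 mesenchymal and blood markers (among them VIM) summed to 65959 to 67876 in DCB and 114213 to 115611 in DMSO, against 54.2 to 2522 in DCB and 6.21 to 374 in DMSO elsewhere. The part of this difference in its HOX pattern was not tested. Of the 39 HOX genes, 22 overlap the annotated span of another HOX gene, 25 overlap some gene on the opposite strand and 6, HOXC12 among them, overlap no annotated gene. The paper and the submitters' notes differ on whether libraries kept strand, so reads of overlapping genes cannot be told apart with certainty.

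The sequences just upstream of 4 HOX genes are shown because the results turn on these genes and because CpG sites are what DNA methyltransferases act on. Each is the 250 bases before the RefSeq transcript start in GRCh38.p14, read 5′ to 3′ on the gene's own strand, with every CpG in capitals. HOXD1 was called higher with DCB in 4 lines. HOXA9 and HOXA13 were listed at 0 in DMSO in the lines where they were called. HOXD13 was at 10 or more in DMSO in HGC27 alone.
HOXD1, chr2:176188418-176188667, plus strand: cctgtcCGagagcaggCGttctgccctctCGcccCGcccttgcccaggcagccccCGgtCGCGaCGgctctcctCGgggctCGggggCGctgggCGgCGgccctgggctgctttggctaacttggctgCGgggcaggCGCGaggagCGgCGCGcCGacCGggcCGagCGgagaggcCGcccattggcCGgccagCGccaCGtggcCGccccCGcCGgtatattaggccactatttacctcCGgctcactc
HOXA9, chr7:27165538-27165787, minus strand: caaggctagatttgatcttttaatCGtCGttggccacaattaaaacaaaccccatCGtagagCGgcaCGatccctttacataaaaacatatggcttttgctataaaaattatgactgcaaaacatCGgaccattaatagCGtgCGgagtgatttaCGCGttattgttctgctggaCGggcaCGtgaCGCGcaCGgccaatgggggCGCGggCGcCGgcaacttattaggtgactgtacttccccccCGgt
HOXA13, chr7:27200092-27200341, minus strand: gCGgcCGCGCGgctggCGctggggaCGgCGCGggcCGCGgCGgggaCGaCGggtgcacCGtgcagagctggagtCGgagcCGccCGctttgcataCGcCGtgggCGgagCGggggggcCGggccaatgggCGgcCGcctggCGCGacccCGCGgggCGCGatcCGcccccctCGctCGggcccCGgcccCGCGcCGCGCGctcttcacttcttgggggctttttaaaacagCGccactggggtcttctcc
HOXD13, chr2:176092471-176092720, plus strand: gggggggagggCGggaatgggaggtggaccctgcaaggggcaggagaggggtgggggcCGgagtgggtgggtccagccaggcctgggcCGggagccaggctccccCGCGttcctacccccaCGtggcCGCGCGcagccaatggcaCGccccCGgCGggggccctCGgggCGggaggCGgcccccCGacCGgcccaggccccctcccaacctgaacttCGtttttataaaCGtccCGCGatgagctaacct
These windows held 31, 20, 40 and 21 CpG sites in the order shown. The median over all 35116 RefSeq promoters of this length was 11, and the median over the 27 promoters of the 20 HOX genes with an entry was 19, with a range of 0 to 40. The HOXA13 window held more CpG sites than 97.8% of all promoters and the HOXD1 window more than 89.1%. For HOXD13 and HOXA9 the shares were 69.8% and 67.6%. TATAAA, searched on both strands, was found in the HOXA9 and HOXD13 windows, in 5 of the 27 HOX promoters and in 10.7% of all promoters. The HOXD1 window overlaps the opposite-strand lncRNA gene HAGLR, and the HOXA9 window lies inside the longer annotated span of HOXA9 itself. HOXC12 and HOXB4 also carry results below and had no entry among these promoters. Methylation was not analysed here.

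In DMSO the 5 lines differed in nearly every HOX gene. Of the 38 tested, 36 differed among the lines at an adjusted p below 0.05 (limma F test), against 67.7% of all genes tested, and HOXC12 and HOXD1 did not pass. The number of HOX genes at 10 or more in both DMSO libraries was 6 in YCCEL1, 17 in SNU719, 11 in AGS, 31 in HGC27 and 21 in SNU16. Pairs of lines differed in 14 to 31 of the 38 HOX genes by the adjusted p. YCCEL1 differed from SNU719 in 23, against 30.2% of all genes, from AGS in 14 (33.3%), from HGC27 in 31 (49.1%) and from SNU16 in 26 (37.5%). SNU719 differed from AGS in 19 (33.1%), from HGC27 in 29 (47.5%) and from SNU16 in 19 (38%). AGS differed from HGC27 in 31 (46.5%) and from SNU16 in 22 (39.7%), and HGC27 from SNU16 in 27 (48.7%). HOXC6 and HOXC9 were the only 2 of the 39 that reached 10 in all 5 lines. At the other end, HOXA2, HOXB1, HOXB4, HOXC12 and HOXD1 reached 10 in both DMSO libraries of no line.

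**Figure D1:**
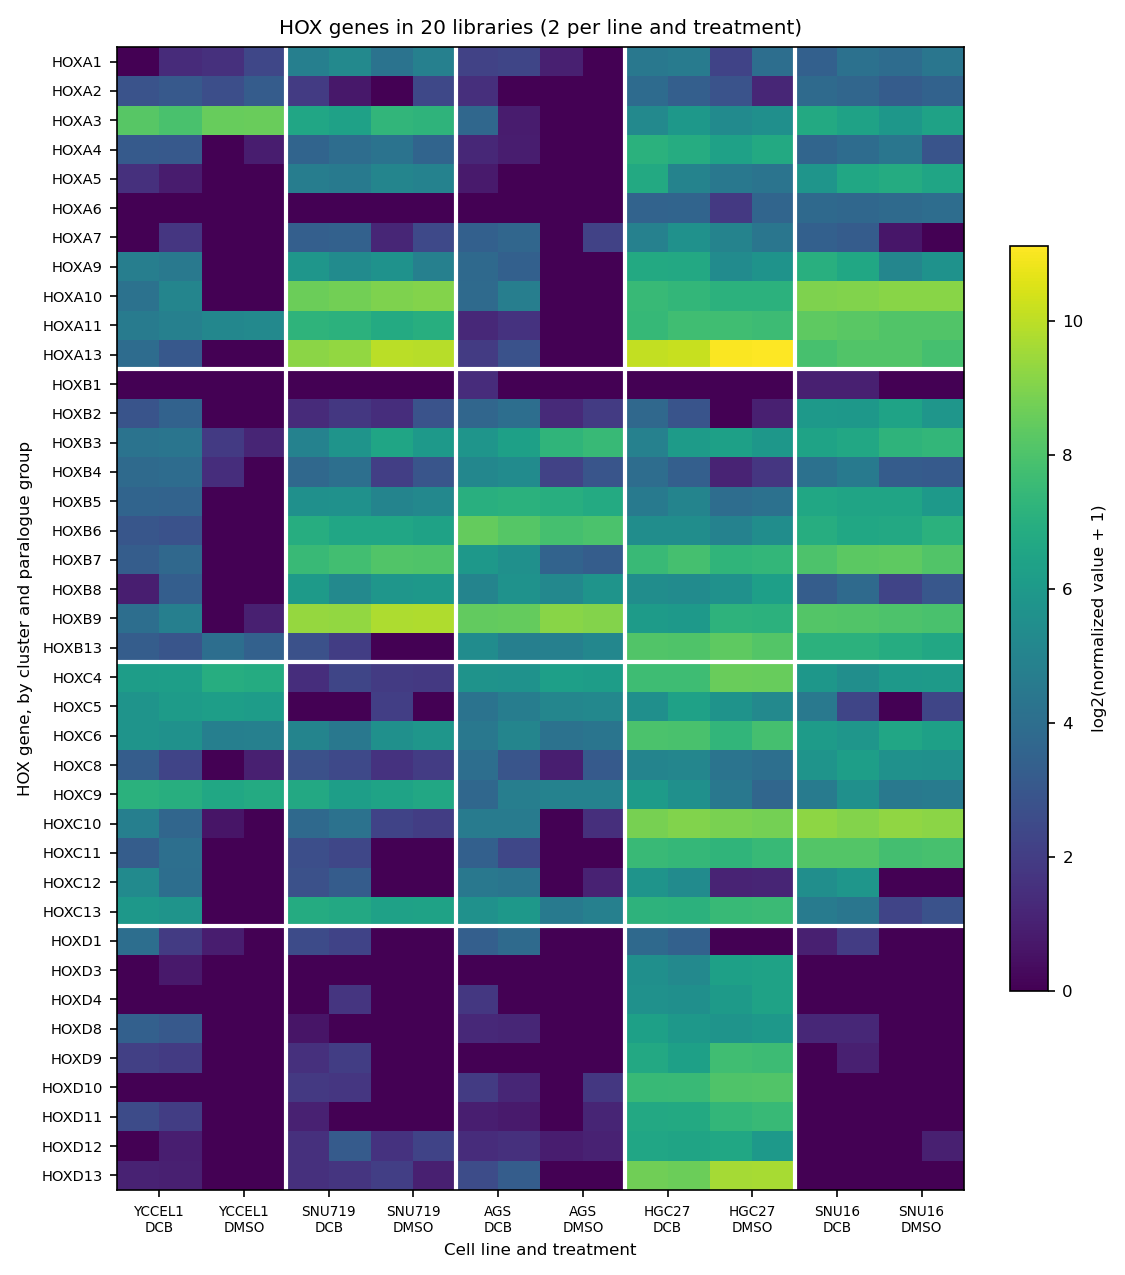
Level of each of the 39 HOX genes (rows, by cluster and paralogue number) in each of the 20 libraries (columns, 2 per line and treatment, DCB left of DMSO), as log2(normalized value + 1). The HOXB rows are dark in YCCEL1 DMSO, the HOXA rows in AGS DMSO, and the HOXD rows outside HGC27.

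Whole clusters were near silent in DMSO in every line but HGC27, with HOXD silent in the other 4, HOXB also in YCCEL1 and HOXA also in AGS. YCCEL1 summed to 19.5 and 12.2 over the 10 HOXB genes, where each other line summed to at least 782. AGS summed to 0.945 and 3.64 over the 11 HOXA genes, while YCCEL1 gave 411 and 431 and the remaining lines at least 1347. The 9 HOXD genes summed to 1717 and 1744 in HGC27 and to at most 5.25 in a DMSO library of any other line. HOXC had no silent line, with sums of 182 to 1480.4. The silence was not uniform within a cluster. In YCCEL1 HOXA3 was 369 and 381 and HOXA11 34.0 and 36.5, while HOXA5, HOXA6, HOXA7, HOXA9, HOXA10 and HOXA13 were listed at 0 in both libraries. In HOXC of the same line HOXC4, HOXC5, HOXC6 and HOXC9 lay between 27.3 and 121, HOXC8, placed between HOXC6 and HOXC9, was 0 and 0.993, and HOXC10 to HOXC13 were at 0.541 or less.

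The genes with the highest deposited DMSO value of their cluster, which are not values per length, show how each line is set up. HOXA13, the most posterior HOXA gene, was 2138 and 2230 in HGC27, 994 and 960.3 in SNU719 and 273 and 228 in SNU16, and was listed at 0 in YCCEL1 and AGS. The 3 expressing lines stood in that order, and each pair of them differed, with adjusted p of 5.94e-05 or less against SNU16 and 0.00339 between HGC27 and SNU719. HOXB9, which works in the thoracic and more caudal axis in mice, was 864 and 896 in SNU719 and 561 and 536 in AGS (adjusted p = 0.0664 for that pair), 260.0 and 240.3 in SNU16 and 144 and 140.1 in HGC27. In YCCEL1 it was 0 and 0.993. HOXC10, a posterior gene of the HOXC cluster, was 474 and 447 in HGC27 and 628 and 590 in SNU16, which did not differ beyond their spread (log2 difference −0.40, SE 0.44, adjusted p = 0.504), and at most 3.73 in the other lines. HOXD13, the most posterior HOXD gene and a gene of digit development, was 790.0 and 803 in HGC27, at most 3.18 in SNU719 and listed at 0 in YCCEL1, AGS and SNU16.

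The other genes chosen this way were spread over the clusters. HOXA3 was the highest HOXA gene of YCCEL1, at the values above. HOXA7 was the highest of AGS at only 0 and 3.64, and HOXA10, a gene of the uterus and limb, was the highest of SNU16 at 564 and 570 and was 502 and 534 in SNU719. HOXB13, known from prostate and distal gut, was 326 and 280.2 in HGC27, 119 and 100.9 in SNU16, 27.7 and 34.7 in AGS, 15.0 and 9.93 in YCCEL1 and listed at 0 in SNU719. HOXB7 was 325 and 277 in SNU16 and was listed at 0 in YCCEL1. HOXC4 was 387 and 370 in HGC27, 121 and 112 in YCCEL1 and 77.4 and 72.7 in AGS, but 2.84 and 2.58 in SNU719. HOXC9 was 97.6 and 112 in YCCEL1 and 86.3 and 102 in SNU719, a pair that did not differ beyond its spread (adjusted p = 0.908), and lower in the other lines. Outside HGC27 the highest HOXD genes were barely detected, with HOXD12 at 2.07 and 3.76 in SNU719.

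With DCB, more HOX genes were higher than lower. Over the 5 lines together, 4 of the 38 tested were called higher, against 3.4% of all genes tested, and none was called lower, against 0.00731%. These were HOXC12, HOXD1, HOXB4 and HOXA9. By the adjusted p alone 14 were higher, against 17.9% of all genes, and 1, HOXC4, was lower, against 6.94%. The HOXC4 change was −0.50 (SE 0.14, adjusted p = 0.0154), and it was −0.27 and no longer passed under upper-quartile scaling (adjusted p = 0.153). With that scaling 17 HOX genes were higher and 0 lower, against 32.6% and 1.75% of all genes. The median log2 change was 0.60 over the 38 HOX genes and 0.15 over all genes tested. The median was 1.16 for HOXC, 0.75 for HOXB, 0.58 for HOXA and 0.48 for HOXD. By position it was 0.40 for the 7 anterior genes tested (paralogues 1 to 3), 0.75 for the 15 central ones (4 to 8) and 0.62 for the 16 posterior ones (9 to 13). Medians that include genes listed at 0 depend on the pseudocount of 1. With a pseudocount of 5 all 4 called genes still passed the adjusted p, at 0.000183 or less, and HOXC12 alone passed the fold limit. Beside these rises, 3 of the 5 mesenchymal and blood markers were higher over the lines by the adjusted p and none was lower, with sums of 2458 and 2522 in DCB against 341 and 374 in DMSO in AGS and of 174 and 178 against 41.5 and 49.8 in YCCEL1. In SNU719 and SNU16 these sums were higher in DCB as well, and in HGC27 they were lower, at 65959 to 67876 in DCB against 114213 to 115611 in DMSO. None of the 6 epithelial markers passed over the lines, although 4 were higher in HGC27 and 2 in AGS by the adjusted p. Of the 15 reference genes 2 were higher and 6 lower over the lines. Under upper-quartile scaling 5 of 5, 5 of 6 and 7 of 15 were higher, and 0, 0 and 4 lower. The part of these changes in the HOX rises was not tested.

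HOXC12, a posterior gene next to HOXC13 and HOXC11, was called higher in all 5 lines, as were 70 of the 27350 genes. Its values were 38.6 and 15.2 in DCB against 0 and 0 in DMSO in YCCEL1, and 5.76 and 8.29 against 0 and 0 in SNU719. They were 21.0 and 19.3 in DCB against 0 and 1.12 in DMSO in AGS, and 53.1 and 39.6 against 1.15 and 1.21 in HGC27. In SNU16 HOXC12 was 44.4 and 57.1 in DCB and 0 and 0 in DMSO. No DCB library of any line overlapped the DMSO libraries, and no DMSO library exceeded 1.21. The log2 change was 4.43 (SE 0.46, adjusted p = 7.90e-06) in HGC27 and 3.86 (SE 0.46, adjusted p = 2.51e-05) in AGS, and the adjusted p over the 5 lines was 1.79e-08.

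HOXD1, the most anterior HOXD gene, followed the same course at lower values. It was 15.5 and 2.86 in DCB against 0.882 and 0 in DMSO in YCCEL1, and 4.80 and 3.77 against 0 and 0 in SNU719. AGS gave 9.25 and 13.5 in DCB and HGC27 12.8 and 10.1, with 0 in both DMSO libraries of each. SNU16 gave 0.988 and 2.95 in DCB against 0 and 0 in DMSO, and was the line where HOXD1 was not called. All DCB libraries lay above all DMSO libraries in each line (adjusted p over the 5 lines 7.71e-06), although the YCCEL1 call was lost without DCB replicate 1, with a log2 change of 1.49 in place of 2.54. HOXD1 rose in HGC27 although none of its 8 neighbours in the cluster passed as higher, and the lncRNA gene HAGLR, which shares its upstream region on the opposite strand, was 27.4 and 23.6 in DCB and 0.693 and 0 in DMSO in the same line.

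HOXB4, known for its part in blood stem cell self-renewal, had values above 0 in both treatments of every line when libraries were averaged. It was 13.2 and 14.3 in DCB against 1.76 and 0 in DMSO in YCCEL1, 12.5 and 15.8 against 3.18 and 6.73 in SNU719, and 34.5 and 40.4 against 3.57 and 6.71 in AGS. It was 14.8 and 9.33 in DCB against 1.15 and 2.42 in DMSO in HGC27, and 16.8 and 22.7 against 8.54 and 7.91 in SNU16. The groups did not overlap in any line, and the log2 change over the 5 lines was 2.13 (SE 0.29, adjusted p = 4.50e-05). Without YCCEL1 DMSO replicate 2 it was 1.95, just under the fold limit. HOXA9, a posterior gene that drives several leukaemias, was called over the 5 lines with an adjusted p of 0.000701. It was 106 and 103 in DCB against 39.7 and 51.8 in DMSO in HGC27 (log2 change 1.19, SE 0.34, adjusted p = 0.0218), and 128 and 97.2 against 33.0 and 50.2 in SNU16 (log2 change 1.43, SE 0.34, adjusted p = 0.0223). In SNU719 it was 57.0 and 40.2 in DCB and 49.96 and 27.9 in DMSO, which overlapped, and in YCCEL1 and AGS it appeared from 0, as given with those lines.

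**Figure D2:**
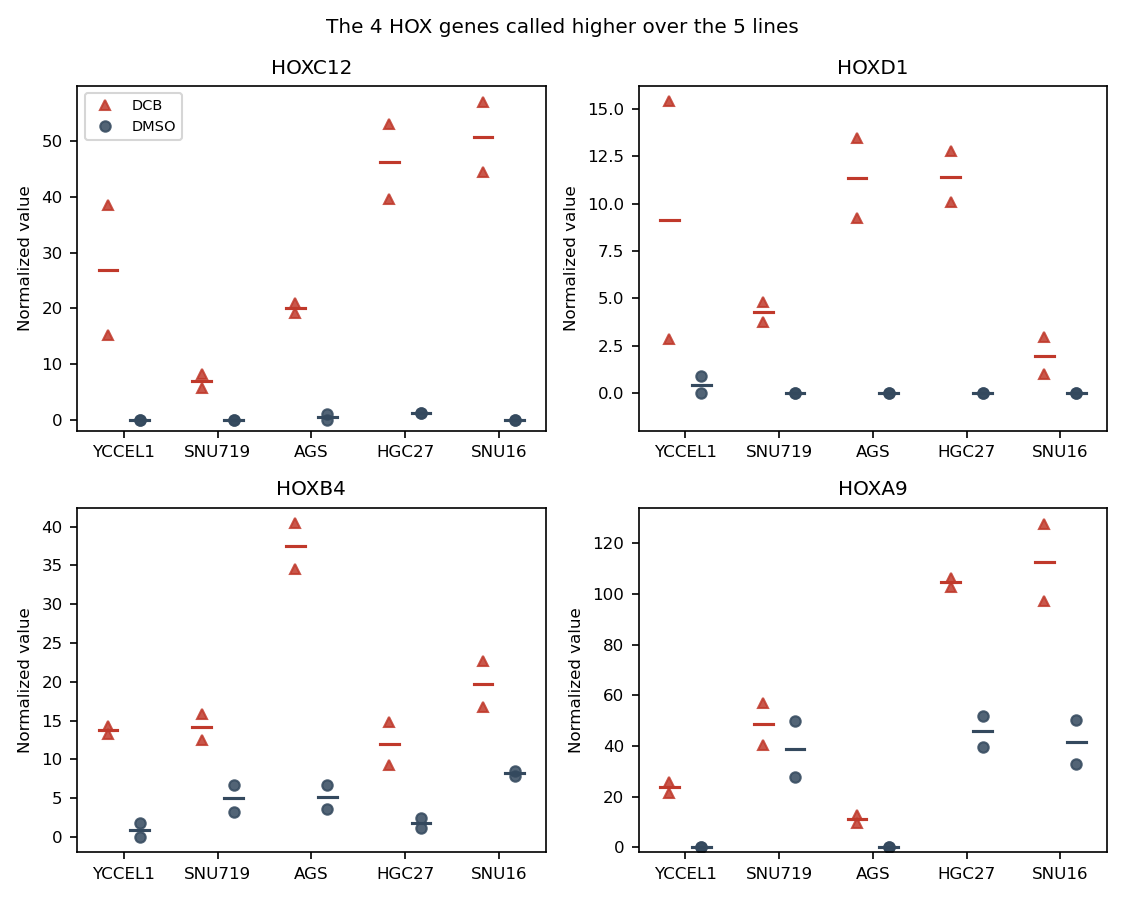
Normalized values of HOXC12, HOXD1, HOXB4 and HOXA9, the HOX genes called higher over the 5 lines, in each library (DCB as triangles, left, and DMSO as circles, right, in each line), with bars at the mean of 2 libraries. DCB lies above DMSO in every line except HOXA9 in SNU719, where the libraries overlap.

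YCCEL1, EBV+ and CIMP+, had the most HOX genes called. In this line 21 of the 38 were higher, against 7.99% of all genes tested, and none was lower, against 0.197%. The adjusted p alone was passed by 22 as higher, against 14.6%, and by none as lower, against 6.93%. The median log2 change was 2.20 over the HOX genes and 0.09 over all genes. The HOXB cluster moved as a block, with 8 of its 9 tested genes called, HOXB2 to HOXB9, and HOXB13 not. Summed over the 10 HOXB genes the values were 89.2 and 115 in DCB and 19.5 and 12.2 in DMSO. HOXB9 was 15.5 and 26.7 in DCB against 0 and 0.993 in DMSO (log2 change 3.92, SE 0.27, adjusted p = 1.61e-07), and HOXB3 17.8 and 18.7 against 2.74 and 1.24 (log2 change 2.74, SE 0.40, adjusted p = 0.000210). HOXB2, HOXB5, HOXB6 and HOXB7 were all listed at 0 in both DMSO libraries and between 6.01 and 12.4 in DCB. HOXB8 was 0.888 and 8.89 in DCB against 0 and 0 in DMSO (adjusted p = 0.0238), and lost its call when any of the DMSO libraries or DCB replicate 2 was left out. The treated HOXB sums remained below the DMSO sums of every other line. With each line fitted alone 13 HOX genes of YCCEL1 were called, and with a pseudocount of 5 in place of 1, which shrinks changes of low values, 6 were.

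In the other clusters of YCCEL1 the genes called had been at or near 0 in DMSO, although not every such gene passed. HOXA9 was 25.9 and 21.5 in DCB, HOXA10 17.5 and 32.8 and HOXA13 14.1 and 7.31, each with 0 in both DMSO libraries. HOXA4 was 8.004 and 7.68 in DCB against 0 and 0.879 in DMSO (log2 change 2.69, SE 0.48, adjusted p = 0.000979). HOXA3 and HOXA11, expressed before treatment, were not past the adjusted p, with HOXA3 at 302 and 239.5 in DCB and 369 and 381 in DMSO. HOXA5, HOXA6 and HOXA7, listed at 0 in both DMSO libraries, did not pass either, at 2.36 or less in DCB. In HOXC the 4 genes HOXC10 to HOXC13 were called together. HOXC13, a gene of hair and nail in mice, was 59.6 and 53.3 in DCB against 0 and 0 in DMSO, with the smallest adjusted p of any HOX gene in this line, 1.18e-09. HOXC10 was 26.8 and 11.7 against 0.541 and 0 (log2 change 3.92, SE 0.44, adjusted p = 1.99e-05), and HOXC11 8.74 and 15.7 against 0 and 0. HOXC8 was called at 8.83 and 3.81 in DCB against 0 and 0.993 in DMSO, and HOXC6, with 27.3 or more in DMSO, passed the adjusted p alone (log2 change 0.86, SE 0.27, adjusted p = 0.0344). In HOXD, besides HOXD1, HOXD8 reached 9.58 and 7.51, HOXD9 3.31 and 2.86 and HOXD11 4.77 and 3.09, each from 0 in both DMSO libraries, while HOXD10 and HOXD4 stayed at 0 in all 4 libraries, and HOXD3, HOXD12 and HOXD13, at 0 in DMSO and 1.10 or less in DCB, did not pass.

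AGS, EBV− and CIMP+, had 13 HOX genes called higher, against 9.02% of all genes tested, and none called lower, against 0.636%, with a median log2 change of 0.97 over the HOX genes and 0.12 over all genes. By the adjusted p alone 17 were higher, against 18.5%, and 1 was lower, against 9.13%. Here the HOXA cluster was the silent block, and its summed value was 60.0 and 61.0 in DCB against 0.945 and 3.64 in DMSO. HOXA10 was 13.6 and 25.8 in DCB, HOXA9 12.96 and 9.76 and HOXA13 2.87 and 5.98, each from 0 in both DMSO libraries, with adjusted p of 8.69e-08, 3.01e-06 and 2.38e-05. HOXA7 was 9.50 and 11.6 in DCB against 0 and 3.64 in DMSO (log2 change 2.42, SE 0.71, adjusted p = 0.0201). HOXA3 was 12.2 and 0.782 in DCB against 0 and 0 in DMSO. HOXA3 and HOXA7 each lost their call in 3 of the 4 fits without a library of this line. With AGS fitted alone 7 HOX genes were called, and with a pseudocount of 5 it was 4.

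In HOXB, which AGS expresses, 3 genes with low DMSO values were called. HOXB7 was 59.9 and 47.3 in DCB against 10.8 and 8.71 in DMSO (log2 change 2.34, SE 0.22, adjusted p = 2.78e-06), HOXB4 rose as given above, and HOXB2 was 11.9 and 15.1 against 1.47 and 2.77 (log2 change 2.24, SE 0.52, adjusted p = 0.00526). HOXB9, high before treatment, was 352 and 363 in DCB and 561 and 536 in DMSO, without passing the adjusted p (0.109). It passed as lower with AGS fitted alone (adjusted p = 0.0165) and with a pseudocount of 5 (adjusted p = 0.0134), and not under upper-quartile scaling (adjusted p = 0.328). HOXB3 passed the adjusted p as lower, at 55.1 and 78.8 in DCB against 153 and 177 in DMSO (log2 change −1.31, SE 0.40, adjusted p = 0.0252), and did not pass under upper-quartile scaling (−1.07, adjusted p = 0.0613). In HOXC, HOXC10 was 23.6 and 24.1 in DCB against 0 and 1.86 in DMSO (log2 change 3.88, SE 0.44, adjusted p = 1.55e-05) and HOXC11 9.49 and 4.24 against 0 and 0. HOXD13 was 5.05 and 8.66 in DCB and 0 and 0 in DMSO (adjusted p = 6.29e-05).

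SNU719, EBV+ and CIMP+ like YCCEL1, had only 4 HOX genes called higher, HOXB13, HOXC11, HOXC12 and HOXD1, against 6.38% of all genes tested, and none lower, against 0.249%. Without the fold limit 7 were higher, against 13.5%, and 1 lower, against 7.64%. All 4 were listed at 0 in both DMSO libraries, and none of them passed the fold limit with a pseudocount of 5. With that pseudocount 7 HOX genes were higher by the adjusted p alone, against 13.5% of all genes. HOXB13 was 5.76 and 3.02 in DCB (adjusted p = 8.46e-05) and HOXC11 5.39 and 4.15 (adjusted p = 0.000162). HOXC10 passed the adjusted p alone, at 12.95 and 17.2 in DCB against 3.73 and 3.08 in DMSO (log2 change 1.86, SE 0.44, adjusted p = 0.00749). None of the 17 HOX genes that this line had at 10 or more in both DMSO libraries passed as higher. Of all genes in this line, 11.6% were higher at a DMSO mean above 10 up to 100, and 10.3% above 100. Under upper-quartile scaling HOXA11, HOXB5 and HOXC13 passed as higher (adjusted p = 0.0399, 0.0334 and 0.0479). HOXA13 was 591 and 633 in DCB and 994 and 960.3 in DMSO (adjusted p = 0.115), and HOXB9 658 and 638 in DCB and 864 and 896 in DMSO (adjusted p = 0.295). Both passed as lower with the line fitted alone (adjusted p = 0.0219 and 0.0240), and HOXA13 also with a pseudocount of 5 (adjusted p = 0.0286). Neither passed under upper-quartile scaling (adjusted p = 0.369 and 0.754). HOXC6 fell by the adjusted p alone, to 31.4 and 20.9 in DCB, against 46.8 and 56.5 in DMSO (log2 change −0.98, SE 0.27, adjusted p = 0.0174), a call not made under upper-quartile scaling (adjusted p = 0.0676).

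HGC27, EBV− and CIMP−, had 4 HOX genes called higher, HOXB2, HOXB4, HOXC12 and HOXD1, against 4.95% of all genes tested, and none lower, against 0.618%. HOXB2 was 12.4 and 6.42 in DCB against 0 and 0.997 in DMSO (log2 change 2.82, SE 0.52, adjusted p = 0.00119). These 4 genes were at 2.42 or less in every DMSO library of a line that had 31 HOX genes at 10 or more. By the adjusted p alone 8 genes were higher, against 14.7% of all genes, among them HOXC9, at 67.8 and 46.8 in DCB against 21.0 and 11.9 in DMSO (log2 change 1.76, SE 0.39, adjusted p = 0.00427). By the same rule 5 were lower, against 9.03%, namely HOXA13, HOXB9, HOXC4, HOXD3 and HOXD9, all expressed before treatment. HOXA13 was 1104 and 1151 in DCB against 2138 and 2230 in DMSO (log2 change −0.95, SE 0.28, adjusted p = 0.0244). HOXC4 was 204 and 201 against 387 and 370 (−0.90, SE 0.25, adjusted p = 0.0187). Under upper-quartile scaling, which moved the median change of all genes up by 0.16 in this line, all 5 kept a negative change and of these only HOXB9 still passed (−0.90, adjusted p = 0.0190). HOXB9 was 68.8 and 63.7 in DCB against 144 and 140.1 in DMSO. The count of HOX genes called higher was 6 without DCB replicate 2, 2 with the line fitted alone and 1 with a pseudocount of 5.

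The HOXD cluster could be followed at high values in HGC27 alone. HOXD13 was 418 and 391 in DCB against 790.0 and 803 in DMSO, with no overlap (log2 change −0.98, SE 0.39, adjusted p = 0.0884). It passed where this line was fitted alone (adjusted p = 0.0183) and with a pseudocount of 5 (adjusted p = 0.00274), and not under upper-quartile scaling (adjusted p = 0.164). HOXD9 was 103 and 80.1 in DCB and 206 and 196 in DMSO (log2 change −1.13, SE 0.37, adjusted p = 0.0392), and HOXD3 46.0 and 36.3 against 78.2 and 83.1. HOXD10 was 177 and 184 in DCB and 262 and 276 in DMSO, and HOXD11 104 and 106 against 164 and 180.0, neither past the adjusted p. Both passed as lower with this line fitted alone (adjusted p = 0.0304 and 0.0388), and HOXD11 also with a pseudocount of 5 (adjusted p = 0.0104). Neither passed under upper-quartile scaling (adjusted p = 0.631 and 0.457). HOXD4 was 49.2 and 45.9 in DCB and 65.6 and 84.6 in DMSO, without overlap, and did not pass the adjusted p. HOXD8, at 78.8 and 59.8 in DCB and 53.0 and 60.3 in DMSO, and HOXD12, at 95.1 and 90.0 and at 98.7 and 61.3, overlapped between treatments.

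**Figure D3:**
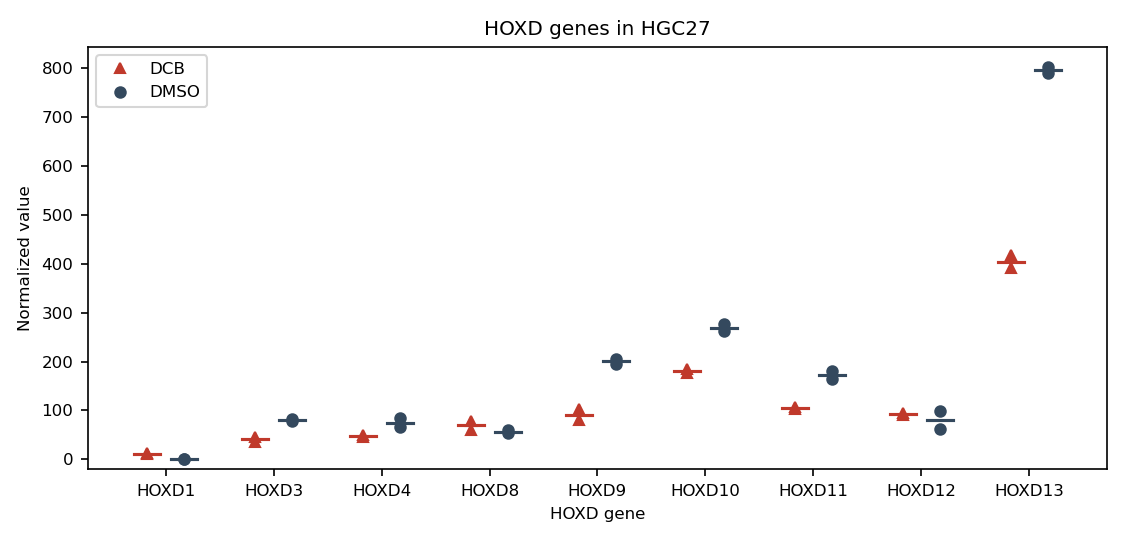
Normalized values of the 9 HOXD genes in the 4 HGC27 libraries (DCB as triangles, left, and DMSO as circles, right, at each gene), with bars at the mean of 2 libraries. HOXD1 is above 0 in DCB alone, and HOXD13 lies at 391 to 418 in DCB and at 790.0 to 803 in DMSO.

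SNU16, EBV− and CIMP−, had the fewest, with 2 HOX genes called higher, HOXC12 and HOXA7, against 2.31% of all genes tested, and none lower, against 0.135%. Without the fold limit 5 were higher, against 4.5%, and none lower, against 2.34%. HOXA7 was 9.78 and 8.53 in DCB against 0.587 and 0 in DMSO (log2 change 3.01, SE 0.71, adjusted p = 0.0198), and its call was lost when any library of this line was left out. HOXC13 passed the adjusted p and fell just short of the fold limit, at 23.7 and 19.7 in DCB against 3.80 and 5.93 in DMSO (log2 change 1.97, SE 0.24, adjusted p = 0.000148). The genes that it expressed most before treatment were not among those that rose. HOXA10 was 508 and 520.0 in DCB and 564 and 570 in DMSO, HOXC10 607 and 538 in DCB and 628 and 590 in DMSO, and HOXB7 258 and 322 in DCB and 325 and 277 in DMSO, and none of these passed the adjusted p. The count of 2 became 1 without DMSO replicate 1, without DCB replicate 1, with a pseudocount of 5 and with the line fitted alone.

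No HOX gene was called lower in any line. At an unadjusted limma p below 0.05, 2 were lower in YCCEL1, against 11.1% of all genes tested, 3 in SNU719 (11.6%), 3 in AGS (12.7%), 6 in HGC27 (13.6%), 0 in SNU16 (7.27%) and 1 over the 5 lines (10.4%). Across lines, the calls came to 44 pairs of a HOX gene and a line, over 25 different genes. Both DMSO libraries were listed at 0 in 27 of the 44. The mean DCB value of a called gene had a median of 10.7 and was at most 56.5. In 32 of the 44 some other line had the gene at a DMSO mean of 10 or more. In all 32 the treated line remained below the highest DMSO mean of another line, at a median of 4.89% of it and a range of 0.203% to 51.8%. In 1 of them it lay above another line that had the gene at 10 or more, with HOXC13 at a mean of 56.5 in treated YCCEL1 and 25.6 in untreated AGS. The other 12 calls were those of HOXC12, HOXD1 and HOXB4, which no untreated line expressed at that level. Treated YCCEL1, for example, had a HOXA13 mean of 10.7 where untreated HGC27 had 2184. The highest of the other lines was used, at 10 or more, and most calls began at 0, so lower treated values were likely from the start. Neither these comparisons nor the share that began at 0 were counted over all called genes.

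**Figure D4:**
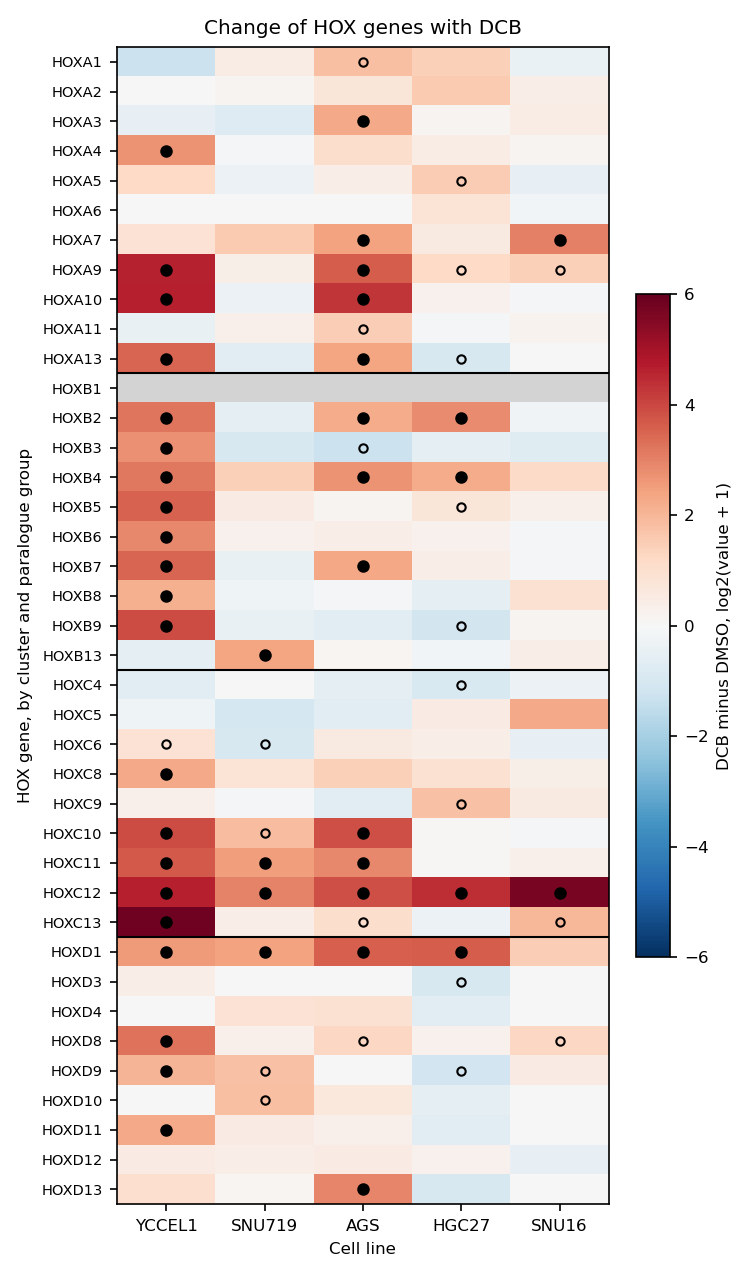
Log2 change (DCB minus DMSO, on log2(normalized value + 1)) of each HOX gene in each line, red for higher and blue for lower in DCB. Filled dots mark genes past the adjusted p and the fold limit, open dots those past the adjusted p alone, and grey marks HOXB1, which was not tested. YCCEL1 carries 21 filled dots and HOXC12 carries 5. Where DMSO was listed at 0, the colour shows the fitted difference and no fold.

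Of the tested HOX genes listed at 0 in both DMSO libraries, 16 of 22 in YCCEL1 were above 0 in both DCB libraries, a share of 72.7%, where 38.8% of all tested genes at 0 in DMSO were. The counts were 6 of 11 in SNU719 (54.5%, against 42.9% of all such genes), 10 of 16 in AGS (62.5%, against 41.2%), 1 of 1 in HGC27 (against 31.2%) and 3 of 9 in SNU16 (33.3%, against 21.8%). The filter on low values summed the DCB libraries too. HOXD1, the 1 gene of HGC27, and HOXC12 passed it only through their DCB values, and HOXB1, at 0 in all DMSO libraries, was left out by it. These shares were thus partly set by the filter, for the HOX genes and for all genes. At the other end, of the HOX genes with a DMSO mean above 100, none passed the adjusted p as higher in any line. This held for 3 such genes in YCCEL1, 6 in SNU719, 4 in AGS, 15 in HGC27 and 11 in SNU16, where 7.39%, 10.3%, 15.4%, 16.5% and 2.5% of all genes of that level were higher. Of the same genes 1 in AGS and 4 in HGC27 were lower, against 21.5% and 19.6% of all genes of that level, and none in YCCEL1 (18.7%), SNU719 (19.2%) or SNU16 (5.79%). These ranges of level were chosen after the values had been seen.

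**Figure D5:**
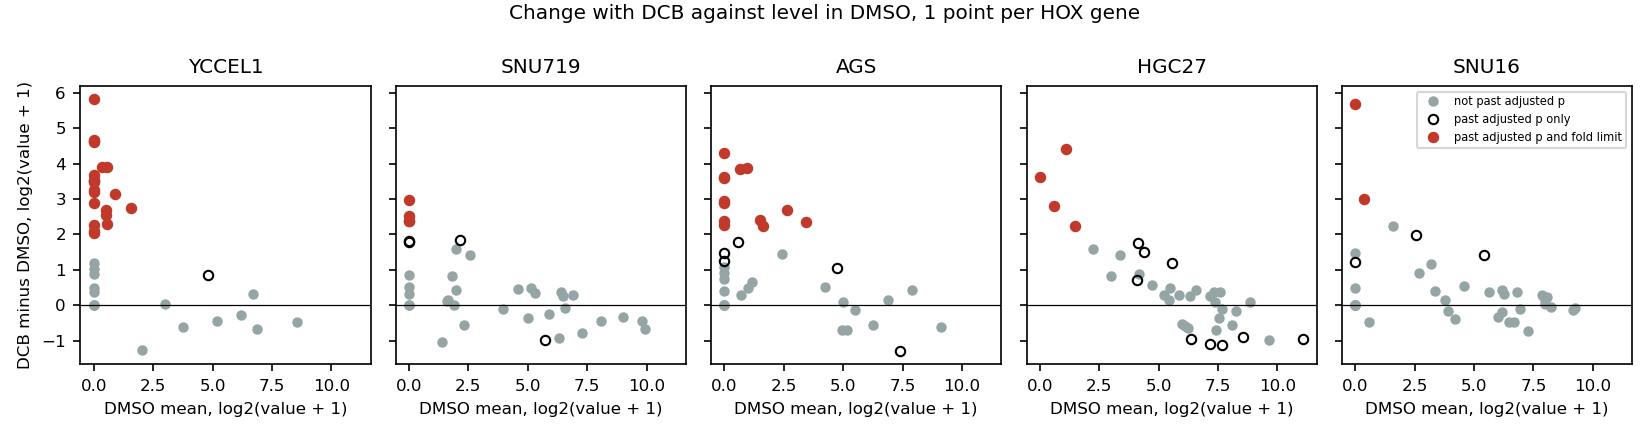
Log2 change with DCB (vertical axis) against the mean DMSO level (horizontal axis, log2(normalized value + 1)), with 1 point per HOX gene in each line. All points past the adjusted p and the fold limit (red) lie at the left, at low DMSO levels. The DMSO libraries enter both axes, so low levels allow rises and no falls by construction.

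Whether lines responded differently was tested directly. Of the 38 HOX genes, 22 had responses that differed among the 5 lines (limma F test, adjusted p below 0.05), against 34.2% of all genes tested. HOXC13 (adjusted p = 8.48e-08) and HOXA10 (3.52e-07) had the smallest values. Of the 4 genes called over the 5 lines, HOXA9 (5.19e-05) and HOXC12 (0.0428) passed, and HOXD1 (0.180) and HOXB4 (0.144) did not. Between CIMP+ and CIMP− lines 4 genes had a difference past both limits, all with the larger mean change in CIMP+ lines, against 3.68% of all genes, and none the other way, against 0.534%. They were the posterior genes HOXA10, HOXA13, HOXC10 and HOXC11. With a pseudocount of 5 none passed the fold limit, in this contrast or by EBV status, while 12 and 8 genes were higher by the adjusted p alone, against 14.1% and 11.2% of all genes. By that rule and the pseudocount of 1, 13 genes had the larger mean response in CIMP+ lines, against 12.8% of all genes, and 1, HOXC9, in CIMP− lines, against 8.94%.

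HOXC10 was the only 1 of these 4 above 0 in at least 1 library of every group. Its log2 change was 3.92 in YCCEL1, 1.86 in SNU719 and 3.88 in AGS, against 0.08 in HGC27 and −0.09 in SNU16, and the difference was 3.22 (SE 0.40, adjusted p = 5.77e-05). The CIMP− lines had it at 447 to 628 in DMSO. HOXC11 followed, appearing from 0 in all 3 CIMP+ lines and standing at 184 and 171 in DCB and 155 and 178 in DMSO in HGC27 and at 279 and 282 in DCB and 225 and 232 in DMSO in SNU16. HOXA10 and HOXA13 did not separate the lines by status, since SNU719, a CIMP+ line, had HOXA10 at 391 and 428 in DCB and 502 and 534 in DMSO, next to rises from 0 in YCCEL1 and AGS.

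Between EBV+ and EBV− lines 4 genes had a larger mean change in the EBV+ lines, HOXB9, HOXC11, HOXC13 and HOXD9, against 2.78% of all genes, and none the other way, against 0.658%. Without the fold limit the counts were 11, against 10.5%, and 1, HOXA11, against 9.17%, and HOXA11 did not pass under upper-quartile scaling (adjusted p = 0.105). The HOXB9 difference was 2.26 (SE 0.24, adjusted p = 1.67e-05), with log2 changes of 3.92 in YCCEL1 and −0.44 in SNU719, against −0.62 in AGS, −1.09 in HGC27 and 0.15 in SNU16. The changes of the EBV+ lines themselves had opposite signs in this gene, although that of SNU719 did not pass. The HOXC13 difference likewise came with 59.6 and 53.3 in DCB against 0 and 0 in DMSO in YCCEL1, but 113 and 103 against 80.5 and 84.6 in SNU719. Its log2 change was 0.39 in SNU719, below 1.04 in AGS and 1.97 in SNU16, and it was −0.37 in HGC27. HOXC11 rose from 0 in EBV− AGS too, to 9.49 and 4.24 in DCB. From 0 it reached 5.39 and 4.15 in SNU719 and 8.74 and 15.7 in YCCEL1. HOXD9 was 3.31 and 2.86 in YCCEL1 DCB and 1.92 and 3.02 in SNU719 DCB, with 0 in all DMSO libraries of both lines, and in the EBV− lines it stayed at 0.985 or less in AGS and SNU16 and was lower in HGC27.

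Other genes of the HOX loci and their partners were followed as lists, counted by the adjusted p over the 5 lines, where 17.9% of all genes were higher and 6.94% lower. Of 16 tested lncRNA genes of the clusters 8 were higher and none lower, with a median log2 change of 0.90. HAGLR was 6.80 and 7.20 in DCB against 0 and 0 in DMSO in YCCEL1. HOXC13-AS was 21.0 and 16.2 in DCB against 0 and 0 in DMSO in the same line, and HOXA10-AS and HOXB-AS1 were also among the 4 with the smallest adjusted p, which ran between 0.000132 and 0.000508 for these 4. Each overlaps a HOX gene on the opposite strand, so part of the reads of either may belong to the other. Of 15 genes that flank the clusters 3 were higher, EVX1 (an even-skipped homeobox gene beside HOXA13), TTLL6 and PRAC2, and none lower, and the median was 0.05. Under upper-quartile scaling 7 of the 15 were higher. EVX1 was 15.8 and 19.7 in DCB against 0 and 0 in DMSO in YCCEL1. Of the 3 tested ParaHox genes, the sister cluster of HOX, 1 was higher and 1 lower. CDX1 was higher, at 9.11 and 7.10 in DCB against 0 and 0 in DMSO in YCCEL1 and 936 and 989 against 1009.9 and 1058 in SNU16, and CDX2 was not past the test (log2 change 0.21, SE 0.22, adjusted p = 0.547). PDX1, a factor of pancreas and duodenum, was lower (log2 change −0.45, SE 0.14, adjusted p = 0.0279), and did not pass under upper-quartile scaling (−0.22, adjusted p = 0.222).

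Among the partners and regulators of HOX proteins there were calls in both directions. Of 9 genes for TALE homeodomain proteins, which bind DNA together with HOX proteins, 2 were higher and 3 lower, and the falls of MEIS2 (−0.44, SE 0.09, adjusted p = 0.00188) and PBX2 (−0.35, SE 0.07, adjusted p = 0.00221) no longer passed under upper-quartile scaling, where none of the 9 was lower. Of 31 Polycomb and Trithorax genes, which keep HOX genes off or on, 1 was higher and 8 lower. CBX2, a chromodomain subunit of Polycomb repressive complex 1, was lower (log2 change −0.55, SE 0.08, adjusted p = 8.61e-05). EZH1, a histone H3 lysine methyltransferase of Polycomb repressive complex 2, was lower (−0.61, SE 0.10, adjusted p = 0.000304), and PHF1, an accessory subunit of that complex, was higher (0.77, SE 0.12, adjusted p = 0.000135). These 3 genes kept their direction and passed under upper-quartile scaling, where 6 of the 31 were higher and 4 lower. EZH2, the other methyltransferase of that complex, had a log2 change of −0.11 (SE 0.13, adjusted p = 0.576) and was named after its value had been seen.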

How the data were processed

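Poly(A) RNA of 5 gastric cancer cell lines treated for 72 h with DCB or DMSO was sequenced, with 2 libraries per group, and groups were taken from the sample labels. The values deposited by the authors are a signal in no named unit, estimated counts normalized per library before deposit, and all 20 value columns were used. The submitters' processing notes list the genome build GRCh37 and the tools DESeq2 1.14.1, featureCounts 1.5.1 and STAR 2.5.2b. The methods in the paper give 3′ stranded libraries and a reference made of GRCh38 with the viral genome, whereas the labels describe a NEBNext Ultra poly(A) kit. Gene positions fitted GRCh38, as 92.6% of 60064 genes present in GENCODE release 44 had the start and end given there, 37 of the 39 HOX genes included. The paper names MKN74 in places where the labels have HGC27, the name used here.

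Values per library summed to 7764408 to 9321014. In each library 36.4% to 44.5% of values below 300 reads were whole multiples of its step (within 0.02), so whole counts could not be recovered and a count test was not run. Tests were made in R 4.3.3 (data.table, version 1.17.8) with the lmFit and eBayes functions of limma 3.58.1, with a mean trend, on log2(value + 1) of the 27350 genes whose values summed to more than 10. The pseudocount makes the fold changes of low genes too small. Each line's effect, the F tests and the CIMP and EBV differences came from a fit with 10 groups, and the effect over the 5 lines from a fit with a term for the line. P-values were adjusted over all genes tested (Benjamini-Hochberg), with calls at 0.05 and an absolute log2 fold change above 2. Files were read with pandas 2.3.3 and numpy 2.4.6 in Python 3.11.15 and figures drawn with matplotlib 3.10.9.

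HOX genes were described with values where called in at least 1 line or over the lines, or where highest in their cluster and line in DMSO, and up to 4 members of each other list by smallest adjusted p, of which some are not reported here. Genes named beside them were chosen after their values were seen. The HOX genes and the lists were chosen with earlier results of these data known. Replicates correlated at 0.969 to 0.980 across genes. Same-numbered libraries did not deviate together, so numbers were not treated as pairs. In data simulated with 27350 genes, 91% to 93% of log2 changes of 3 were called in single lines and 100% over the 5 lines, and 49% to 55% and 90% of changes of 1 passed the adjusted p, of which 4.70% to 10.7% and 7.32% of those passing were false. The simulated shares were not split by level, so they do not show recovery or false calls for genes without signal in DMSO. Of the 44 HOX calls in single lines, 27 were of genes without signal in either DMSO library of the line. Other pseudocounts, filters, scalings, fold limits, a replicate block, each line alone and leaving out each library were tried.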

Additional observations from a re-analysis of the deposited data

Results flagged for a closer look

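The HOX genes below had a DCB response that differed between groups of lines in a direct test of the difference, with limma's adjusted p over all genes tested. Between CIMP+ and CIMP− lines these were HOXA10 (adjusted p = 4.13e-06), HOXA13 (3.59e-05), HOXC10 (5.77e-05) and HOXC11 (2.85e-05). Between EBV+ and EBV− lines they were HOXB9 (1.67e-05), HOXC11 (0.000579), HOXC13 (6.89e-06) and HOXD9 (0.000513). In each the mean change of the CIMP+ or EBV+ lines was the larger. Line by line this held for HOXC10 and HOXC11 by CIMP status and for HOXD9 by EBV status, and in none of the other cases. The log2 change of HOXC13 was 0.39 in SNU719, against 1.04 in AGS and 1.97 in SNU16. HOXC10 and HOXC11 were the 2 that passed the adjusted p as higher in all 3 CIMP+ lines and in neither CIMP− line. HOXA10 and HOXA13 were called in YCCEL1 and AGS and not in SNU719. HOXB9 and HOXC13 were called in YCCEL1 alone. HOXD9 was at 3.31 or less in every library of the EBV+ lines. With 2 EBV+ lines and 3 EBV− lines, status and the other traits of each line cannot be told apart.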

How the results depend on the processing

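No HOX gene called higher changed direction under the alternatives run, and the counts of HOX genes called moved mainly with the pseudocount and the fold limit. Of the 44 calls in single lines, 32 and the calls of 3 of the 4 genes over the lines were no longer made with a pseudocount of 5. The counts called higher were then 1 over the 5 lines, 6 in YCCEL1, 0 in SNU719, 4 in AGS, 1 in HGC27, 1 in SNU16 and 0 for the CIMP and the EBV difference. With a pseudocount of 0.5 the count over the 5 lines was 8. With each line fitted alone the counts were 13 in YCCEL1, 7 in AGS, 2 in HGC27 and 1 in SNU16. At a fold limit of 1 they were 14 over the lines, 7 in SNU719, 7 in HGC27, 5 in SNU16, 12 for CIMP and 9 for EBV, with 1 lower in AGS, 2 in HGC27 and 1 for CIMP. The shares of all genes were not counted for calls at another fold limit or pseudocount, or with each line fitted alone. By the adjusted p alone the counts higher and lower were 14 and 1 over the lines, 7 and 1 in SNU719, 17 and 1 in AGS, 8 and 5 in HGC27, 5 and 0 in SNU16, 13 and 1 for CIMP and 11 and 1 for EBV. Under upper-quartile scaling, which moved the median of all genes by 0.15 to 0.28, the HOX genes lower by the adjusted p alone were 0 over the lines, 1 in HGC27, 0 in SNU719 and AGS and 0 for EBV, against 1, 5, 1, 1 and 1. The share of all genes lower over the lines was then 1.75%, against 6.94%. In HGC27, SNU719, AGS and for EBV it was 5.86%, 2.97%, 4.87% and 6.88%. With that scaling the sign of changes that passed the adjusted p in neither case turned for 1 HOX gene over the lines (HOXB3), 1 in YCCEL1, 4 in SNU719, 1 in AGS, 2 in HGC27, 4 in SNU16 (HOXC10 among them, 0.08 in place of −0.09) and 1 for EBV, and for EZH2 (0.13 in place of −0.11). With a pseudocount of 5 the HOX genes lower by the adjusted p alone were 7 in HGC27, against 10.7% of all genes, and 3 in AGS (9.59%). They were 2 in SNU719 (8.36%), 1 in YCCEL1 (7.2%), 3 for CIMP (9.9%) and 2 for EBV (10.2%). With each line fitted alone they were 6 in HGC27 (5.11%), 3 in SNU719 (5.03%), 1 in AGS (5.56%), 1 in YCCEL1 (4.1%) and 0 in SNU16 (0.761%).

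Leaving out 1 library at a time gave 3 to 6 genes called higher over the lines, 18 to 21 in YCCEL1, 4 to 5 in SNU719, 11 to 13 in AGS, 3 to 6 in HGC27, 1 to 3 in SNU16, 4 to 5 higher and 0 to 1 lower for CIMP, and 3 to 4 higher and 0 to 1 lower for EBV. The lone library of a group was then assumed to vary like the other groups. The replicate block left every one of these counts within 1.5 times, at 20 in YCCEL1 and 20 for the test among lines, and same-numbered libraries correlated at −0.0191 to 0.0148 in their deviations, so that the numbers do not pair the libraries. By the adjusted p alone the block gave 9 in place of 14 higher and 0 in place of 1 lower over the lines, against 12.5% and 4.66% of all genes. It gave 3 in place of 5 higher in SNU16 (2.96%), 2 in place of 5 lower in HGC27 (8%) and 0 in place of 1 lower for EBV (7.95%). The call of HOXC8 in YCCEL1 was not made with the block (adjusted p = 0.0764). The effects of a filter of at least 10 in 2 libraries, of no filter and of eBayes without trend stayed within the same bounds. Depth limits all low values: 27 of the 44 calls set DCB values against 0 in DMSO at about 1 read per unit. The cause of the changes with settings other than the pseudocount and the fold limit was not tested.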
